A study of Mus musculus with 20 samples.

Results

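The Hox genes were examined as the 39 rows, of 46329 gene rows in the count files, whose symbol is Hox followed by the cluster letter a, b, c or d and a paralog number. They form 4 clusters, HoxA on mouse chromosome 6 (11 rows), HoxB on chromosome 11 (10 rows), HoxC on chromosome 15 (9 rows) and HoxD on chromosome 2 (9 rows). The 20 RNA-seq libraries came from colorectal tumors and adjacent non-tumor tissue, labelled as epithelium, of C57BL/6J mice 100 days old. Every mouse carried ApcMin/+, an Apc mutation that predisposes to intestinal tumors, and the floxed alleles Erbb2 f/f. The Erbb2-deficient mice also carried Tg(Vil1-cre), in which the Villin promoter drives cre recombinase in intestinal epithelium, and the controls were littermates without this transgene. Each of the 4 groups of genotype and tissue holds 5 libraries, named here by group and replicate number. The study asked what ERBB2 does in colorectal tumors of this model. The labels do not say where along the colon a library was taken, nor that libraries of equal number come from 1 mouse, and p-values therefore measure the spread between libraries.

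Hox genes encode homeodomain transcription factors that give cells their position along the head-to-tail axis. Their order along the chromosome mirrors the order in which they are used along that axis, with low paralog numbers in front and the highest, up to 13, in the hindgut and tail. In the gut they are known from both the mesenchyme, which includes smooth muscle, and the epithelium, and the Cdx factors of the hindgut are known to act on several of them. Parts of the clusters are also transcribed from the opposite strand as long non-coding RNAs, among them Hoxa11os, Hoxb3os and Haglr.

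Each library held 1071737 to 1944309 counts on genes (median 1258396), which was 2.51% to 3.45% of its reads, while 78.6% to 85.1% of reads lay in no counted feature. The library kit keeps strand, and the row of ND6, the mitochondrial protein gene on the other strand from the rest, held 22599 to 199495 counts against 884 to 5698 summed over the other 12 mitochondrial protein rows. Rows thus appear to be counted on the opposite strand. A Hox, marker or other gene symbol given with a level below names a row of counts, not a measured transcript of that strand. In GENCODE M21, 10 of the 39 Hox genes share exon sequence with a gene on the opposite strand, and the rows of these may hold reads of that opposite gene. Which gene such a row reports was not tested. Of the 12 rows with enough counts to test, 5 are of this kind (Hoxa3, Hoxa7, Hoxa11, Hoxb2 and Hoxb3). Of the other 7, Hoxa5 and Hoxb6 lie within the span of such a gene, Hoxb7 lies within 1000 bases of one, and Hoxa9, Hoxa10, Hoxb13 and Hoxd11 have none.

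Libraries that stood apart are named before the results. Control tumor 2 held 123 Hox counts in all, against 851 to 6112 in the other 19 libraries, and its 12 epithelial markers summed to 18.2 normalized CPM (counts scaled to a library of 1000000), where the other control tumors had 317 to 1082. Its 8 B cell markers summed to 311 normalized CPM, where the other control tumors had 52.4 to 105. Control adjacent 3 had no count in Hoxd10 to Hoxd13 and 1 count in Hoxb13, and the highest level of its group in Hoxa3, Hoxa7, Hoxa9, Hoxb2 and Hoxb3. Where leaving out one of these libraries changed a call named below, the value without it is given. Control tumor 3 also had the highest level of its group in Hoxa3, Hoxa7 and Hoxa9, and no count in Hoxb13. Values without control tumor 3 are not given for every call.

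Sequences are shown for the posterior HoxD genes, whose rows were at 0 together in the same libraries, for Hoxa11, whose row held the most Hox counts, and for the miR-196 microRNAs of the clusters. The promoter windows are from RefSeq (build GRCm38.p6) and run 250 bases before to 50 after a gene start, 5′ to 3′. Capitals mark the motif TTTATG or its reverse complement CATAAA, a Cdx-type site, searched on both strands. Hoxd11 has a pair of starts.
Hoxd13, chr2:74667975-74668274 (plus strand): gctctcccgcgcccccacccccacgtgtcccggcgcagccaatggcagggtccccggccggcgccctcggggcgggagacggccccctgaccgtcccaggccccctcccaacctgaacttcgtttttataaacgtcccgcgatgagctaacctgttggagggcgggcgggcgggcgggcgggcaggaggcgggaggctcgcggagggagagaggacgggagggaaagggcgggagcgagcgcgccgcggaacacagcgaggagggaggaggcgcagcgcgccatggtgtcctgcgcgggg
Hoxd12, chr2:74674763-74675062 (plus strand): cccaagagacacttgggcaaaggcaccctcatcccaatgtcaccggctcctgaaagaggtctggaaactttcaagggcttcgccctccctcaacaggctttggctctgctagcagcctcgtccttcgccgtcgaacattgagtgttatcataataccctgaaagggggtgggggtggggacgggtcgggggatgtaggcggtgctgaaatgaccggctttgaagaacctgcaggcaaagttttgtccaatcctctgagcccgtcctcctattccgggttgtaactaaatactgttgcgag
Hoxd11 upstream start, chr2:74679308-74679607 (plus strand): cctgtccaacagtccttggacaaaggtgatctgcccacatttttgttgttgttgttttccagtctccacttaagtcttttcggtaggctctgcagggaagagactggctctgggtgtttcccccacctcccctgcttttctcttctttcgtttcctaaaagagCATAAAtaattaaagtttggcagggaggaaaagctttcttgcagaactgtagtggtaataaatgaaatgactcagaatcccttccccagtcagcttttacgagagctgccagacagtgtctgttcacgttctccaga
Hoxd11 downstream start, chr2:74682073-74682372 (plus strand): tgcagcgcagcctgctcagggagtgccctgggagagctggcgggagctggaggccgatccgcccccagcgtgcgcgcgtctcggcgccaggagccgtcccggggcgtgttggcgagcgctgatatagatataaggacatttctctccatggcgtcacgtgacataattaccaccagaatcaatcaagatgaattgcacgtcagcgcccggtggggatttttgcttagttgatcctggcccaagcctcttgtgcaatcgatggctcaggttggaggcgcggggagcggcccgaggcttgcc
Hoxd10, chr2:74691641-74691940 (plus strand): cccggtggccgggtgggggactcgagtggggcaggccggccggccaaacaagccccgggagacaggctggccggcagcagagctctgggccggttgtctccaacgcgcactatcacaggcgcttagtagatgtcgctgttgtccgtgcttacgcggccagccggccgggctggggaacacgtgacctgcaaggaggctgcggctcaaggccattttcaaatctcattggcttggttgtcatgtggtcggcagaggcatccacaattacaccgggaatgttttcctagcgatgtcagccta
Hoxa11, chr6:52245761-52246060 (minus strand): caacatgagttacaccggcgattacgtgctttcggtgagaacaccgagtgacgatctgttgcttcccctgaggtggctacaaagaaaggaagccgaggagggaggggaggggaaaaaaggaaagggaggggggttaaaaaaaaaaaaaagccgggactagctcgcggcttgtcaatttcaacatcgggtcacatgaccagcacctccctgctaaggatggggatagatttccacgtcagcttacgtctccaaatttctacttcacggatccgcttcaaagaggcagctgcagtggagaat
Among these 6 windows the letters of the motif stood only in the upstream window of Hoxd11, once, as CATAAA. Windows were listed for 22 of the 39 Hox genes, 24 windows in all, and 5 of these (20.8%) held the motif, against 11.9% of all 32817 windows of the same length. CG dinucleotides numbered 37 in the Hoxd13 window, 13 in Hoxd12, 4 and 25 in the upstream and downstream Hoxd11 windows, 22 in Hoxd10 and 15 in Hoxa11, against a median of 7 over all windows. A match is a description of letters and says nothing of binding.

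The mature miR-196 sequences are also from RefSeq, with the seed (bases 2 to 8) in capitals. miR-196b lies in HoxA beside Hoxa9, and miR-196a is encoded in HoxB and HoxC.
mmu-miR-196b-5p: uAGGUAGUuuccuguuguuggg
mmu-miR-196a-5p: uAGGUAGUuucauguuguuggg
Both share the seed AGGUAGU. miR-196 is known to act on Hox messages, and its rows are described with the other non-coding rows.

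Almost all Hox counts lay in HoxA. Over the 20 libraries HoxA held 51958 counts (94.6% of Hox counts), HoxB 2495 (4.54%), HoxD 443 (0.807%) and HoxC 26. The single row Hoxa11 held 42714 counts, or 77.8%, and this row, opposite Hoxa11os, may hold reads of that gene. A row was tested when it held about 10 counts or more in at least 5 libraries, and 12 of the 39 Hox rows passed: Hoxa3, Hoxa5, Hoxa7, Hoxa9, Hoxa10, Hoxa11, Hoxb2, Hoxb3, Hoxb6, Hoxb7, Hoxb13 and Hoxd11. The map of rows by paralog number shows the highest levels in HoxA, at Hoxa10 and Hoxa11, lower ones in HoxB and HoxD, and HoxC nearly empty.

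**Figure D1:**
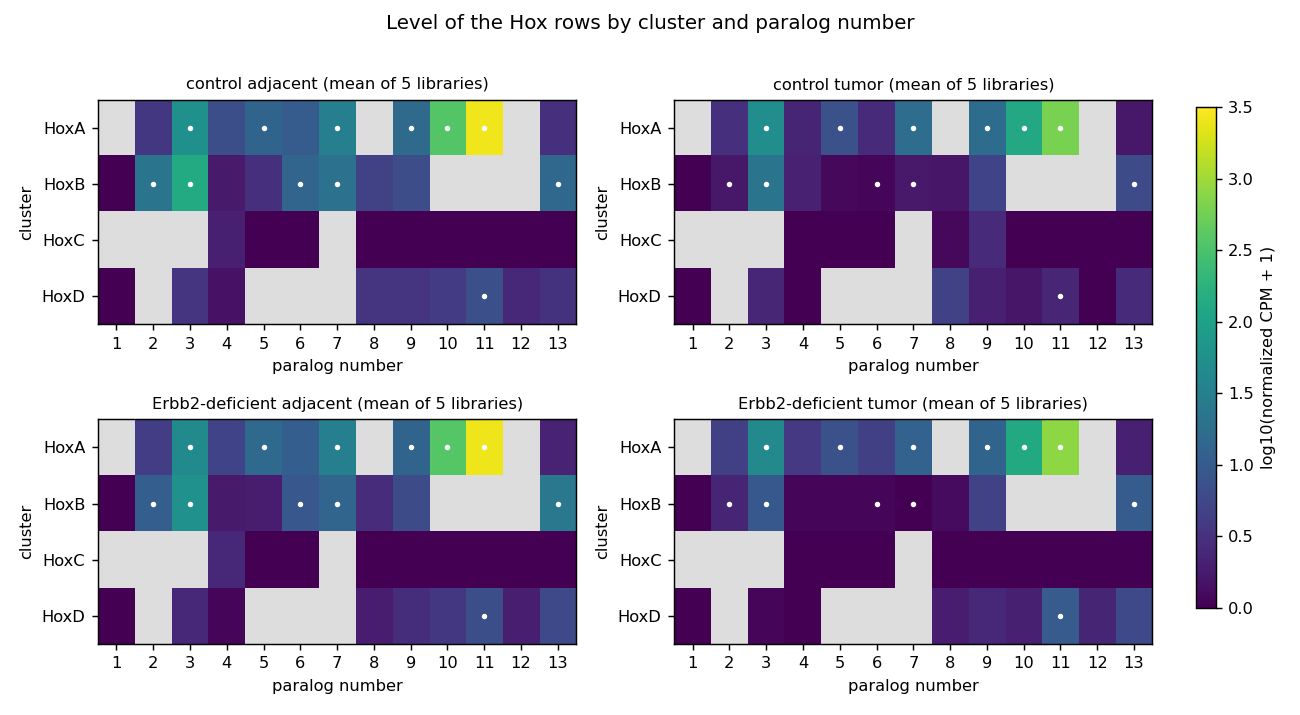
Mean level of each Hox row in the 4 groups, as log10 of normalized CPM plus 1, with paralog number across and cluster down. White dots mark the 12 rows that passed the count filter and grey cells are paralogs without a gene or not shown; brighter cells are higher, Hoxa11 and Hoxa10 are the brightest in every group, and HoxC is at or near 0 throughout.

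The 27 rows that failed the filter had too few counts for the main test and are described by their counts. Of these, 8 were at 0 in every library: Hoxb1, Hoxc5, Hoxc6, Hoxc10, Hoxc11, Hoxc12, Hoxc13 and Hoxd1. The highest count of any failed row was 32, for Hoxa6, which summed to 55 counts in control adjacent tissue, 9 in control tumors, 71 in Erbb2-deficient adjacent tissue and 25 in Erbb2-deficient tumors. Under other settings that did test it, Hoxa6 was called lower in control tumors, at -2.52 on the log2 scale with a minimum count of 5 (adjusted p = 0.0181, edgeR) and -2.53 with no filter (0.00384). In HoxA, Hoxa2 (at most 8 counts in a library), Hoxa4 (20) and Hoxa13 (5) failed too. In HoxB the failed rows with counts were Hoxb4 (5), Hoxb5 (4), Hoxb8 (11) and Hoxb9 (13). In HoxD they were Hoxd3 (5), Hoxd4 (2), Hoxd8 (12), Hoxd9 (6), Hoxd10 (10), Hoxd12 (4) and Hoxd13 (18). In HoxC, Hoxc4 held 16 counts, spread over 8 libraries, all of adjacent tissue, and with no filter it was called lower in Erbb2-deficient tumors (adjusted p = 0.0347, edgeR). Hoxc8 held 1 count and Hoxc9 held 9, all in control tumors, and 8 of the Hoxc9 counts and the Hoxc8 count were in control tumor 2.

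Per kilobase of exon in control adjacent tissue, Hoxa11 stood at 1145 ± 377 normalized CPM per kilobase (mean ± SD, n = 5) and Hoxa10 at 113 ± 20.3. Hoxb3 followed at 32.1 ± 19.5, then Hoxb7 at 12.4 ± 6.81, Hoxa7 at 11 ± 6.74 and Hoxa3 at 9.41 ± 4.43. Hoxa5 (6.73), Hoxb6 (6.52), Hoxb13 (6.22) and Hoxb2 (6.07) were within 1 SD of each other, and Hoxa9 (2.76) and Hoxd11 (1.43) were lowest on the same scale. Hoxa11, Hoxa10 and Hoxb3 were each above the next row in this order by more than the larger SD of the pair, and from Hoxb7 down neighbours differed by less.

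Tumors were compared with adjacent tissue within each genotype. In controls, 6 Hox rows were lower in tumors and 0 higher at an adjusted p under 0.05 (edgeR's quasi-likelihood test, Benjamini-Hochberg over all 7119 tested rows): Hoxa10, Hoxa11, Hoxb2, Hoxb3, Hoxb6 and Hoxb7. Over all tested rows 10.9% were called lower and 10.7% higher. In Erbb2-deficient mice 5 Hox rows were lower, the same ones without Hoxa11, and 0 higher, where all tested rows gave 14.5% lower and 13% higher. Hoxb2, Hoxb6 and Hoxb7 are near 0 in tumors and passed the filter through adjacent tissue alone, so a difference was built into their selection. The count of called rows is therefore a description. Without control tumor 2, which enters the shared estimate of spread, 8 rows were called lower in Erbb2-deficient mice, and with only the control groups in the fit 2 were called in controls. The median log2 fold change of the 12 tested Hox rows was -1.73 in controls, against 0.07 over all tested rows, and -1.48 in Erbb2-deficient mice, against -0.06. Hoxb2, Hoxb6 and Hoxb7 enter these medians, as does Hoxa5, which passed the filter mostly through adjacent tissue. The medians are a description too. In bulk tissue fewer cells of a type and less RNA per cell cannot be told apart.

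**Figure D2:**
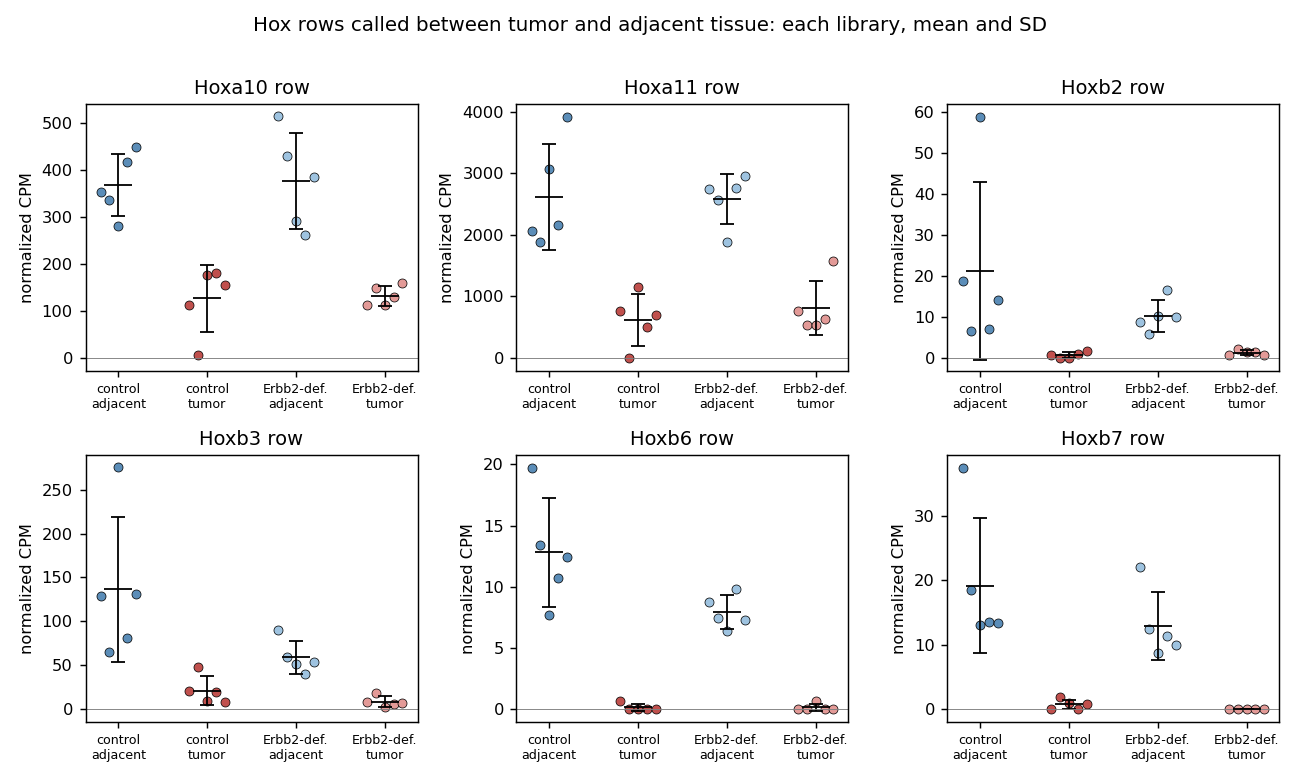
Normalized CPM (linear axis, scaled for each row) of the 6 called Hox rows in each of 5 libraries a group, with the mean and SD as bars. Tumor libraries lie below adjacent libraries of the same genotype without overlap in all 6 rows.

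Hoxa10, a posterior HoxA gene known from uterus and blood, has no annotated gene opposite it and was the most abundant such row. In control adjacent tissue its 5 libraries stood at 353, 338, 282, 418 and 449 normalized CPM, in order of replicate number, and in control tumors at 114, 7.26, 177, 181 and 156. In Erbb2-deficient mice adjacent tissue stood at 515, 430, 291, 263 and 386 and tumors at 113, 148, 112, 130 and 161. Tumor and adjacent libraries did not overlap in either genotype, and control tumor 2 was far below every other library. The log2 fold change was -1.54 ± 0.44 (SE) in controls (adjusted p = 0.0167, edgeR), or 2.90-fold lower, and -1.50 ± 0.44 in Erbb2-deficient mice (adjusted p = 0.0146), or 2.84-fold lower. Without control tumor 2 the control value was -1.24 (adjusted p = 0.000362). The control call was lost when only the control groups were fitted (adjusted p = 0.0993), and both calls were lost without the count filter.

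Hoxa11 is known from the limb and the uterus, and its row lies opposite Hoxa11os. It stood at 2054, 1886, 3076, 2155 and 3920 normalized CPM in control adjacent tissue and at 763, 0, 1151, 503 and 698 in control tumors. In Erbb2-deficient mice the values were 2740, 2567, 1891, 2761 and 2956 in adjacent tissue and 766, 537, 543, 642 and 1576 in tumors. Again no tumor library reached the adjacent range, control tumor 2 held not a single count, and Erbb2-deficient tumor 5 stood above the other tumors of both genotypes. In controls the log2 fold change was -2.07 ± 0.71 (SE), with an adjusted p of 0.0419 by edgeR, and this call was lost in 14 of 27 alternative settings, with adjusted p from 0.000132 to 0.191. Without control tumor 2 the control value was -1.76 (adjusted p = 0.000447), and without control adjacent 3 it was -2.01 (adjusted p = 0.0676). In Erbb2-deficient mice it was -1.67 ± 0.70 with an adjusted p of 0.0819, which became 0.000217 when control tumor 2 was left out of the shared estimate of spread.

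The HoxA rows in front of these were not called in either genotype in the main fit. Hoxa3, a gene of the pharyngeal arches, had means of 56.6 normalized CPM in control adjacent tissue, 50.4 in control tumors, 46.9 in Erbb2-deficient adjacent tissue and 43.0 in Erbb2-deficient tumors. Hoxa9, known from blood progenitors, had means of 15.4, 16.1, 12.3 and 12.3 in the same order of groups. These levels overlapped between tissues, with log2 fold changes of -0.17 ± 0.43 and -0.13 ± 0.43 for Hoxa3 and 0.05 ± 0.62 and 0.01 ± 0.62 for Hoxa9 (controls, then Erbb2-deficient mice). Without control adjacent 3 the control value of Hoxa9 was 0.97 (adjusted p = 0.277, edgeR). Hoxa5, known from lung and gut development, had means of 12.6, 6.33, 14.9 and 6.27 normalized CPM. Its log2 fold change was -0.99 ± 0.50 in controls (adjusted p = 0.163, edgeR) and -1.23 ± 0.48 in Erbb2-deficient mice (adjusted p = 0.0622). Hoxa5 passed the filter mostly through adjacent tissue, so a difference was built into its selection. Hoxa7 had means of 31.7, 16.6, 31.6 and 11.4, with log2 fold changes of -0.94 ± 0.67 (adjusted p = 0.333) and -1.46 ± 0.68 (adjusted p = 0.113). In Erbb2-deficient mice both rows were called lower when control tumor 2 was left out of the shared estimate of spread (adjusted p = 0.0436 for Hoxa5 and 0.0424 for Hoxa7), and Hoxa5 also without control adjacent 4 (0.0335) or Erbb2-deficient tumor 5 (0.0244). In controls Hoxa5 was called lower without control adjacent 4 (-1.26, adjusted p = 0.0475) and Hoxa7 without control tumor 3 (-1.87, adjusted p = 0.0379), while without control adjacent 3 Hoxa7 stood at -0.50 and without control tumor 2 at -0.64. In Erbb2-deficient mice both rows were also called lower with only the 2 groups in the fit. There DESeq2 called Hoxa5 too, and the replicate block called Hoxa7. Calls of Hoxa5 and Hoxa7 thus turned on single libraries and on the settings of the fit.

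The anterior HoxB genes Hoxb2 and Hoxb3 are known for patterning the hindbrain, and their rows both lie opposite exons of Hoxb3os. Hoxb2 stood at 18.8, 6.72, 58.9, 7.17 and 14.2 normalized CPM in control adjacent tissue and at 0.698, 0, 0, 0.952 and 1.69 in control tumors. In Erbb2-deficient mice it stood at 8.73, 5.82, 10.3, 16.6 and 9.92 in adjacent tissue and at 0.756, 2.24, 1.40, 1.49 and 0.720 in tumors. The tissues did not overlap in either genotype, and control adjacent 3 was the highest of the 20 libraries. Tumors differed by a log2 fold change of -4.78 ± 0.72 in controls (adjusted p = 0.000157, edgeR) and -2.87 ± 0.65 in Erbb2-deficient mice (adjusted p = 0.00277). Without control adjacent 3 the control value was -3.92 (adjusted p = 0.000218). Control tumors held 4 Hoxb2 counts in all, so the size of the control difference rests on few counts. Hoxb2 passed the filter through adjacent tissue alone, so a difference was built into its selection.

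Hoxb3 was the most abundant HoxB row. Its libraries stood at 129, 65.5, 275, 80.7 and 131 normalized CPM in control adjacent tissue and at 20.2, 48.1, 9.20, 19.0 and 8.47 in control tumors. The values in Erbb2-deficient mice were 89.6, 59.8, 50.8, 40.1 and 53.6 in adjacent tissue and 7.56, 18.7, 2.10, 5.21 and 7.20 in tumors. Tumors lay below adjacent tissue without overlap, and control adjacent 3 was again the highest library and control tumor 2 the highest tumor. On the log2 scale the change was -2.70 ± 0.51 in controls (adjusted p = 0.00103, edgeR) and -2.84 ± 0.53 in Erbb2-deficient mice (adjusted p = 0.000645), or 6.48-fold and 7.18-fold lower. Without control tumor 2 the control value was -3.26, and without control adjacent 3 it was -2.25, with adjusted p of 7.58e-05 and 0.00422.

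Hoxb6 and Hoxb7, neighbours in the middle of the cluster that are known from limb, kidney and blood, were close to absent from tumor libraries. Hoxb6 stood at 19.7, 13.4, 7.65, 10.8 and 12.5 normalized CPM in control adjacent tissue and at 8.73, 7.48, 6.35, 9.84 and 7.28 in Erbb2-deficient adjacent tissue. Control tumors held 1 Hoxb6 count in all, in control tumor 1, against 72 in control adjacent tissue. Erbb2-deficient tumors also held 1, in tumor 3, against 56. Scaled for library size the level in adjacent tissue was 73.3 times that in tumors in controls (exact 95% interval 12.7 to 2934, counting error only) and 54.5 times in Erbb2-deficient mice (9.39 to 2191). The fitted log2 fold changes were -5.59 ± 0.63 (adjusted p = 6.32e-06, edgeR) and -5.04 ± 0.63 (adjusted p = 1.86e-05). Hoxb6 passed the filter through adjacent tissue alone, so a difference was built into its selection.

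Hoxb7 stood at 37.5, 18.5, 13, 13.4 and 13.3 normalized CPM in control adjacent tissue and at 22.1, 12.5, 8.73, 11.4 and 9.92 in Erbb2-deficient adjacent tissue. In control tumors it stood at 0, 1.82, 0.92, 0 and 0.85, which is 4 counts in all, and in Erbb2-deficient tumors it had no count. Every adjacent library was thus above every tumor library. In controls the fitted log2 fold change was -4.60 ± 0.61 (adjusted p = 0.000105, edgeR), and without control tumor 2, which held 2 of the 4 counts, it was -5.21. In Erbb2-deficient mice the level in tumors was at least 29.4-fold lower, where 3 counts summed over the tumors (0.439 normalized CPM) stand in for 0, with an adjusted p of 2.85e-05. As for Hoxb6, a difference was built into the selection of Hoxb7, which passed the filter through adjacent tissue alone.

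**Figure D3:**
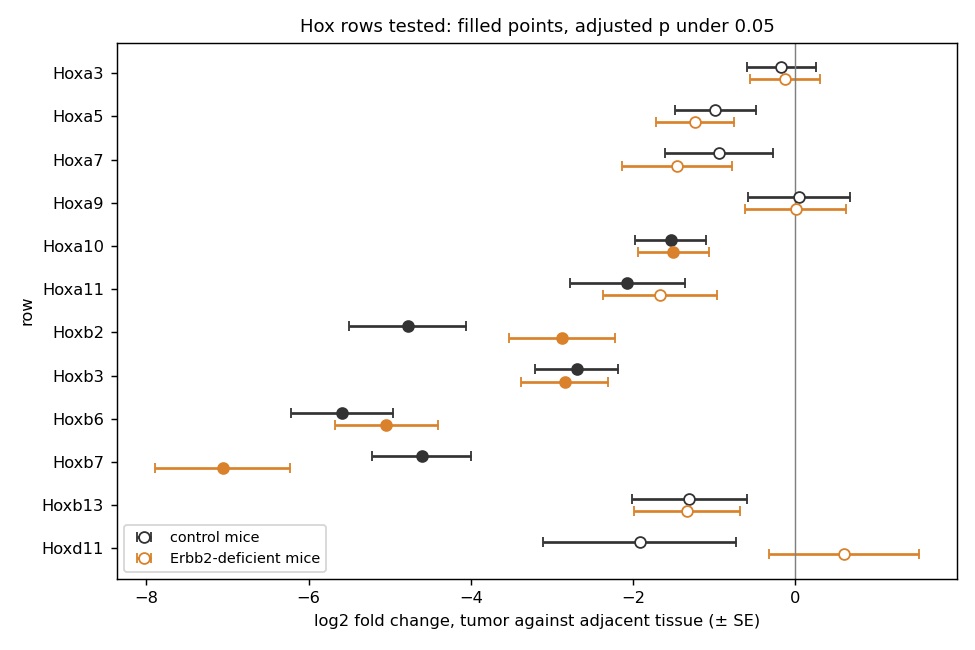
Log2 fold change of tumor against adjacent tissue for the 12 tested Hox rows in controls and Erbb2-deficient mice, with bars of 1 SE. Filled points have an adjusted p under 0.05; all 4 called HoxB rows lie at or below -2.70 in both genotypes, and the Hoxb7 value in Erbb2-deficient mice depends on the prior count because no tumor library had a count.

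Hoxb13, the last gene of HoxB and known from distal colon and prostate, was not called but did not overlap between tissues in Erbb2-deficient mice. Its libraries stood there at 25.0, 22.4, 21.4, 30.3 and 20.5 normalized CPM in adjacent tissue and at 10.6, 14.2, 4.89, 8.19 and 9.37 in tumors. In controls they stood at 24.7, 9.24, 0.765, 17.0 and 16.9 in adjacent tissue and at 12.6, 0, 0, 11.4 and 2.54 in tumors. Among the control libraries, adjacent 3 and tumors 2 and 3 were at or near 0. The log2 fold change was -1.34 ± 0.66 in Erbb2-deficient mice (adjusted p = 0.135, edgeR) and -1.31 ± 0.71 in controls (adjusted p = 0.198). With Hoxa11, which also did not overlap there, 7 Hox rows lay wholly lower in Erbb2-deficient tumors, where 13.6% of all tested rows did, and 6 in control tumors, where 6.66% did. Hoxb2, Hoxb6 and Hoxb7, which passed the filter through adjacent tissue alone, are among these rows in both genotypes.

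The posterior HoxD rows, Hoxd10 to Hoxd13, whose genes pattern the limb and the hindgut, were present in some libraries and at 0 in others. Their summed counts were 26, 21, 0, 11 and 13 in control adjacent tissue and 20, 5, 0, 0 and 0 in control tumors. In Erbb2-deficient mice they were 49, 17, 29, 9 and 1 in adjacent tissue and 31, 45, 36, 0 and 0 in tumors. In 6 of the 20 libraries all 4 rows were at 0: 1 of control adjacent tissue, 3 of control tumors and 2 of Erbb2-deficient tumors. A count of 0 allows up to 3 counts, which is 1.75 to 2.96 normalized CPM over the 20 libraries. Evx2, a homeobox gene beside Hoxd13, also held 0 counts in each of these 6 libraries.

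Hoxd11 was the only row of the HoxD cluster tested. It stood at 12.8, 7.56, 0, 4.48 and 5.34 normalized CPM in control adjacent tissue, 4.19, 2.72, 0, 0 and 0 in control tumors, 10.5, 6.65, 10.3, 2.27 and 0 in Erbb2-deficient adjacent tissue, and 9.07, 20.9, 15.4, 0 and 0 in Erbb2-deficient tumors. The groups overlapped, and within Erbb2-deficient tumors 3 libraries were among the highest and 2 had no count. Tumors differed by a log2 fold change of -1.92 ± 1.19 in controls (adjusted p = 0.263, edgeR) and 0.60 ± 0.93 in Erbb2-deficient mice (adjusted p = 0.665). The interaction of genotype and tissue was 2.52 ± 1.51 (unadjusted p = 0.11).

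**Figure D4:**
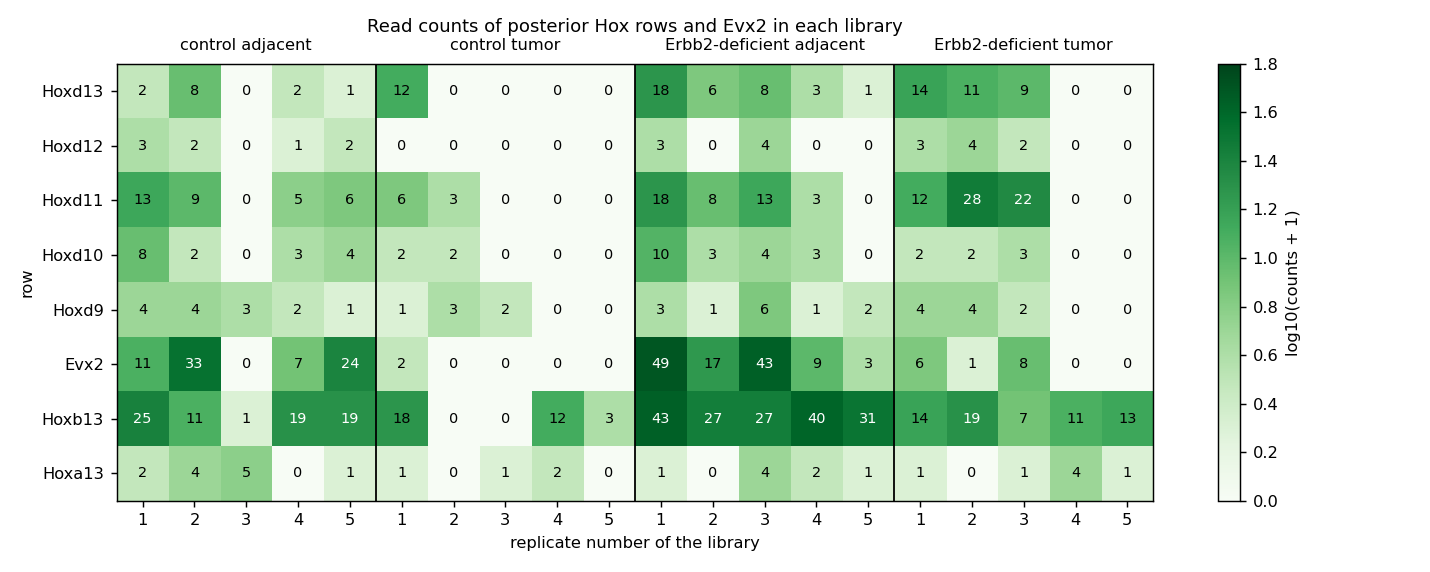
Counts (printed in each cell, shaded by log10 of counts plus 1) of the posterior rows Hoxd13, Hoxd12, Hoxd11, Hoxd10 and Hoxd9, of Evx2 beside them, and of Hoxb13 and Hoxa13, in each of the 20 libraries. The 6 libraries at 0 in Hoxd10 to Hoxd13 are also at 0 in Evx2.

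The rows opposite or beside the Hox genes were read from the same fit. Of 19 listed antisense and long non-coding genes 13 were in the files and 7 were tested, and 2 were called lower and 0 higher in each genotype. Over all tested rows 10.9% were called lower in controls and 14.5% in Erbb2-deficient mice. Hoxb3os, opposite Hoxb2 and Hoxb3, averaged 68.5 normalized CPM in control adjacent tissue and 21.6 in control tumors, a log2 fold change of -1.66 ± 0.32 (adjusted p = 0.00126, edgeR). In Erbb2-deficient mice it averaged 33.1 and 13.9, a log2 fold change of -1.24 ± 0.33 (adjusted p = 0.00764). It was thus lower in tumors with its partner rows. Haglr, opposite Hoxd3, had 4, 14, 13, 13 and 21 counts in control adjacent tissue and 10 counts in control tumor 2 but 0 in the other control tumors. It had 11, 13, 7, 10 and 10 counts in Erbb2-deficient adjacent tissue and 0 in all Erbb2-deficient tumors, where its level was at least 16.8-fold lower (adjusted p = 0.0026). Haglr passed the filter through adjacent tissue, so a difference was built into its selection. The control difference was -2.62 ± 0.83 (adjusted p = 0.0323), and its call was lost in 10 of 27 alternatives; without control tumor 2, which leaves no count in control tumors, the adjusted p was 0.000115, and without control adjacent 3 it was 0.0523.

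Hoxa11os was not called. It averaged 65.8 normalized CPM in control adjacent tissue and 93.4 in control tumors (log2 fold change 0.50 ± 0.56, adjusted p = 0.557, edgeR), and 42.3 and 50.7 in Erbb2-deficient mice (0.26 ± 0.56, adjusted p = 0.763). The Hoxa11 row held more counts than the Hoxa11os row in 19 of 20 libraries, 0 to 4710 against 2 to 244, and the exception was control tumor 2. The Hoxb3 row was above Hoxb3os in 14 of 20 libraries. The Hoxa3 row was below Hoxaas2 in all 20, 17 to 130 counts against 40 to 452. The Hoxa7 row was above Hoxaas3 in 1 library. Which row of a pair held more counts thus differed along the same cluster.

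**Figure D5:**
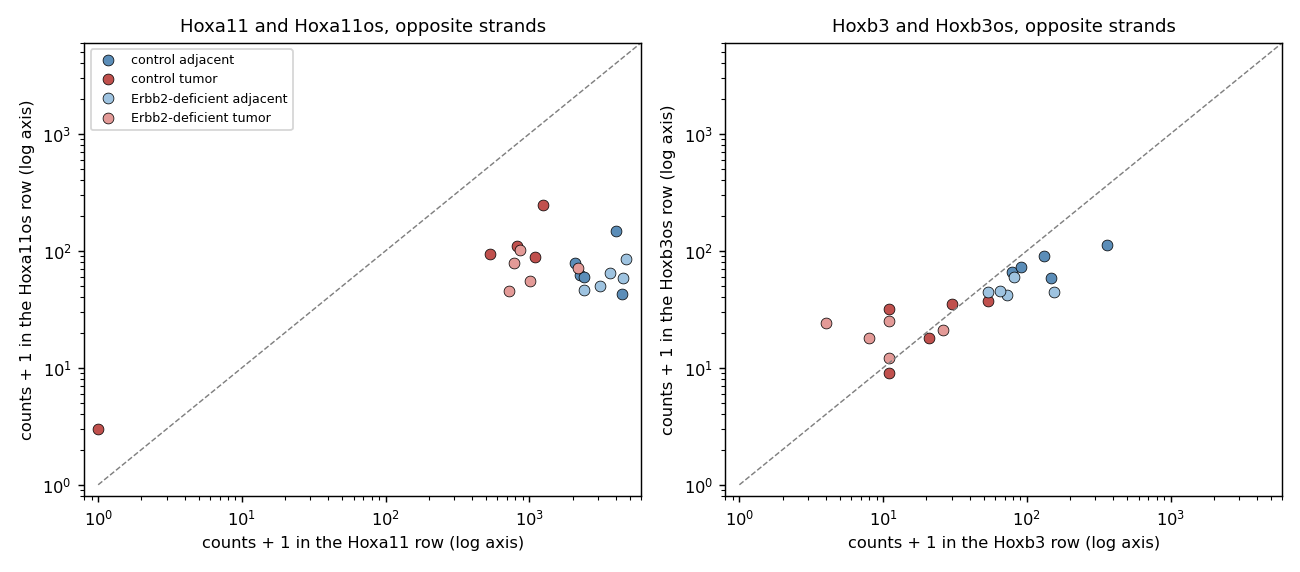
Counts plus 1 of Hoxa11os against the Hoxa11 row, and of Hoxb3os against the Hoxb3 row, 1 point a library, on log axes with the Hox row across and a dashed line at equal counts. Points below the line have more counts in the Hox row, which holds for 19 of 20 libraries at Hoxa11 and 14 at Hoxb3.

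Of the 7 listed microRNA rows, 1 of which (Mir3072) lies on chromosome 12 and outside the clusters, Mir196b alone was tested. It stood at 55.3, 85.7, 41.3, 95.9 and 73.0 normalized CPM in control adjacent tissue and at 33.5, 0.908, 35.0, 26.7 and 41.5 in control tumors, with a slight overlap. In Erbb2-deficient mice it stood at 70.4, 58.2, 70.6, 58.3 and 64.8 in adjacent tissue and at 26.4, 23.1, 23.0, 29.8 and 31.0 in tumors, without overlap. The log2 fold change was -1.35 ± 0.44 (adjusted p = 0.0321, edgeR) in controls and -1.27 ± 0.43 (adjusted p = 0.0342) in Erbb2-deficient mice. These calls were lost in 6 and 9 of 27 alternatives, the replicate block among them (adjusted p = 0.0709 and 0.0777). A row of this messenger RNA library would count longer transcripts over the hairpin, not the mature microRNA shown above. In GENCODE M21 the hairpin lies within a Hoxa9 exon on the same strand, and which transcript the row counts was not tested.

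Of 13 listed genes that flank the clusters 11 were in the files and 3 were tested. Evx2 had 11, 33, 0, 7 and 24 counts in control adjacent tissue and 2 in control tumors, all in control tumor 1. It had 49, 17, 43, 9 and 3 in Erbb2-deficient adjacent tissue and 6, 1, 8, 0 and 0 in Erbb2-deficient tumors. It was called lower in both genotypes, with log2 fold changes of -4.94 ± 1.25 (adjusted p = 0.00837, edgeR) and -2.91 ± 0.91 (adjusted p = 0.0222), and the control level in adjacent tissue was 38.2 times that in tumors (exact 95% interval 10.2 to 321, counting error only). Evx2 passed the filter through adjacent tissue, so a difference was built into its selection. Without control tumor 1 no count was left in control tumors, and without Erbb2-deficient tumor 3 the value in that genotype was -3.58. Ttll6, a tubulin glutamylase gene near Hoxb13, averaged 280 normalized CPM in control adjacent tissue and 32.2 in control tumors (-3.11 ± 0.74, adjusted p = 0.00569), and 309 and 75.8 in Erbb2-deficient mice (-2.03 ± 0.70, adjusted p = 0.037). Within control adjacent tissue Ttll6 held 342, 315, 13, 475 and 408 counts, so control adjacent 3 was low in this row too. Control tumor 3 held 11 Ttll6 counts, where control tumors 1, 4 and 5 held 75, 44 and 67 and control tumor 2 held 0. Evx1, the homeobox gene beside Hoxa13, went the other way, from 2.73 to 24.1 normalized CPM in Erbb2-deficient mice (3.14 ± 0.73, adjusted p = 0.00324), and from 5.6 to 14.8 in controls (1.37 ± 0.68, adjusted p = 0.158). Evx1 passed the filter mostly through tumors, so a difference in this direction was built into its selection. In GENCODE M21 Evx1 shares exon sequence with Evx1os on the opposite strand, so its row may hold reads of that gene. The control difference of Evx1 was called without control tumor 2 (1.67, adjusted p = 0.0239) and without control adjacent 3 (2.29, adjusted p = 0.0326). Of these calls, that of Evx2 in Erbb2-deficient mice was lost in 5 of 26 alternatives, and those of Ttll6 in 1 of 27 for controls and 10 of 27 for Erbb2-deficient mice.

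Hox proteins bind DNA together with TALE homeodomain proteins such as Pbx and Meis. All 11 listed TALE genes were in the files and 3 were tested. Tgif1, a TALE repressor, was called higher in tumors of both genotypes, from 36.1 to 83.1 normalized CPM in controls (1.20 ± 0.38, adjusted p = 0.0292, edgeR) and from 24.7 to 98.5 in Erbb2-deficient mice (1.99 ± 0.39, adjusted p = 0.000931), and the control call was lost in 7 of 27 alternatives. Of 21 Polycomb, Trithorax and insulator genes, which keep Hox clusters silent or active, 7 were tested. Ctcf, the insulator protein gene, was called higher in control tumors (1.20, adjusted p = 0.0448, edgeR), but control tumor 2 stood at 1919 normalized CPM, the other control tumors at 239 to 378 and control adjacent tissue at 216 to 403. Without control tumor 2 the Ctcf difference was 0.21 (adjusted p = 0.489), so the call rests on that library, and it was also lost without control adjacent 3 (adjusted p = 0.0857) and in 18 of 27 alternatives in all. Ezh1, a Polycomb methyltransferase gene, was lower in control tumors (-1.47, adjusted p = 0.0148), and this call was lost without control adjacent 4 (-1.14, adjusted p = 0.0557) and with no filter (0.0761). Ezh1 passed the filter mostly through adjacent tissue, so a difference was built into its selection. Kmt2a, a Trithorax methyltransferase gene, was lower in Erbb2-deficient tumors (-1.49, adjusted p = 0.0222), a call lost without Erbb2-deficient tumor 1, Erbb2-deficient tumor 4 or Erbb2-deficient adjacent 1. In controls Kmt2a stood at -0.95 (adjusted p = 0.143) and was called lower without control tumor 2 (-1.86, adjusted p = 0.000809).

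Of 20 ParaHox and gut regional factors 4 were tested. Cdx1, a ParaHox gene of the intestinal epithelium known to act on Hox genes, was lower in tumors, from 25.9 to 8.46 normalized CPM in controls (-1.62 ± 0.53, adjusted p = 0.0335, edgeR) and from 35.0 to 10.2 in Erbb2-deficient mice (-1.78 ± 0.51, adjusted p = 0.0136). Its control call was lost in 6 of 27 alternatives, among them without control adjacent 3 (-1.53, adjusted p = 0.0661) and without control tumor 1 (-1.49, adjusted p = 0.0774). Gata5, a factor of the proximal gut, was higher, from 0.179 to 19.3 normalized CPM in controls (adjusted p = 0.00182), and at least 55.5-fold higher in Erbb2-deficient tumors, where 3 counts summed over the adjacent libraries stand in for 0 (adjusted p = 0.000383). Gata5 passed the filter through tumors, so a difference was built into its selection. Hnf4a was not called in either genotype.

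Most smooth muscle markers were also lower in tumors. All 17 listed markers were tested, and 15 were called lower in control tumors and 13 in Erbb2-deficient tumors. Of all tested rows 10.9% and 14.5% were called lower, in the same order of genotypes. Their sum ranged from 1331 to 2830 normalized CPM in control adjacent tissue, 185 to 613 in control tumors, 1297 to 1662 in Erbb2-deficient adjacent tissue and 238 to 316 in Erbb2-deficient tumors, and Chrm2 was at 0 in all control tumors. Chrm2 thus passed the filter through other groups, which built a control difference into its selection. A marker low in tumors can pass through adjacent tissue, so the counts of called markers are a description. Of the 12 epithelial markers 11 were tested, and 0 were called in controls and 1, Lgals4, lower in Erbb2-deficient mice. Their sum ranged from 464 to 1051 normalized CPM in control adjacent tissue, 18.2 to 1082 in control tumors, 636 to 1178 in Erbb2-deficient adjacent tissue and 416 to 832 in Erbb2-deficient tumors. Of 10 fibroblast markers 5 were tested, with 0 called in controls and 3 called higher in Erbb2-deficient tumors, where 13% of all tested rows were. The enteric neuron and glia list, with 1 of 12 markers tested and not called, summed to 6.12 to 69.4 normalized CPM in control adjacent tissue, 4.19 to 19.5 in control tumors, 20.6 to 40.4 in Erbb2-deficient adjacent tissue and 2.79 to 16.6 in Erbb2-deficient tumors. The adjacent libraries labelled as epithelium thus held counts in smooth muscle marker rows. These rows, like the Hox rows, appear to be counted on the opposite strand. The part of tissue make-up in the Hox differences was not tested.

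Genotypes were compared within each tissue. Among tumors 0 Hox rows were called either way, as were 0% of all 7119 rows by edgeR's quasi-likelihood test, although 11.5% of all rows and 3 of the 12 tested Hox rows had an unadjusted p under 0.05. Those 3 were Hoxb3, Hoxb7 and Hoxd11. Hoxb3 averaged 21 normalized CPM in control and 8.14 in Erbb2-deficient tumors, a log2 fold change of -1.36 ± 0.53 (95% interval -2.41 to -0.31, adjusted p = 0.319, edgeR), and -0.80 without control tumor 2 (adjusted p = 0.727). Hoxb7 averaged 0.716 and 0 (adjusted p = 0.319). Hoxd11 averaged 1.38 and 9.06, a log2 fold change of 2.53 ± 1.13 (0.31 to 4.74, adjusted p = 0.398), and 2 Erbb2-deficient tumors were at 0. In all 3 rows the groups overlapped.

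In adjacent tissue 0 Hox rows were called, against 0% of all rows, with 5.87% of all rows and 1 Hox row at an unadjusted p under 0.05. That row was Hoxb3, with 136 normalized CPM in controls and 58.8 in Erbb2-deficient mice (log2 fold change -1.21 ± 0.48, 95% interval -2.15 to -0.27, adjusted p = 0.797, edgeR), and -0.80 without control adjacent 3 (adjusted p = 0.891). Hoxa10 averaged 368 and 377 (0.03 ± 0.43, interval -0.80 to 0.87) and Hoxa11 averaged 2618 and 2583 (-0.02 ± 0.68, interval -1.36 to 1.32). The widths of these intervals come from an estimate of spread shared over the 4 groups, which control tumor 2 enters, and not from the adjacent libraries alone.

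The tumor difference was also compared between genotypes through the interaction term, and 0 Hox rows and 0% of all rows were called by edgeR, with 4.07% of all rows and 1 Hox row at an unadjusted p under 0.05. That row was Hoxb7, at -2.46 ± 1.12 (unadjusted p = 0.0421), which rests on 4 counts in control tumors and 0 in Erbb2-deficient tumors. For Hoxb2, -4.78 in controls and -2.87 in Erbb2-deficient mice differed by 1.91 ± 1.09 on the log2 scale (unadjusted p = 0.0941). The difference for Hoxa10 was 0.03 ± 0.61 and for Hoxb3 -0.15 ± 0.67. A different response of the Hox rows by genotype was therefore not detectable with these libraries.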

How the data were processed

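The authors deposited 1 table of read counts per gene for each of the 20 libraries. Trimmomatic, HISAT2 2.2.1, HTSeq 2.0.2, DESeq2 and build mm39 are named in the submitters' processing notes, and the strand setting of the counting is not given in the sources used here. The 5 summary rows (96.6% to 97.5% of reads) were left out, and 0 columns of values went unused. No 2 libraries were identical.

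Counts were tested with edgeR 4.0.16 in R 4.3.3. Rows passed filterByExpr at a minimum count of 10 by group (7119 of 46329), libraries were scaled by TMM, and a means model of the 4 groups over all 20 libraries gave quasi-likelihood F tests with Benjamini-Hochberg adjustment over all tested rows at 0.05. The scripts were tested on simulated data. The SE is the size of the log2 fold change divided by the square root of F, and 95% intervals take the normal quantile times the SE. Normalized CPM uses TMM-scaled library sizes. The median of 1258396 counts per library leaves rows of a few counts with a large counting error, and the exact intervals of count ratios and the floors cover counting error only. GENCODE M21 (GRCm38, another build than the counts) was used for names, exon length and overlaps only.

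Hox rows were chosen by symbol. Called rows are given in every library, tested rows that were not called by group means, with Hoxb13, Hoxd11 and the counts of Hoxd10 to Hoxd13 by library after their values were seen, and failed rows by counts. Of the other lists, up to 4 called rows each are named, with Hoxa11os and Hnf4a added after their values were seen. A failed Hox row and a row of the other lists are not reported here. The members and lists were chosen with earlier results of these data known. Alternatives were RLE factors, no filter, a minimum count of 5, DESeq2 1.42.0, a replicate block, a fit of the 2 groups compared, and leaving out each library or control tumors 2 and 3 together.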

Additional observations from a re-analysis of the deposited data

Results flagged for a closer look

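Of 48 sets of 5 libraries (12 tested Hox rows in 4 groups), 8 held a library whose gap to the next exceeded Dixon's 95% limit. Chance flags about 1 in 20 sets of normally distributed values. Low counts do not follow that distribution, and 1 count among values of 0 is always flagged, so the flags are a description. Control adjacent 3 was flagged for Hoxa9, at 44.4 normalized CPM against 6.23 to 10.9 in the other 4 libraries, and for Hoxb2, at 58.9 against 6.72 to 18.8. Control adjacent 4 was low in Hoxa5, at 1.79 against 12.6 to 16.9. Hoxb7 was high in control adjacent 1, at 37.5 against 13 to 18.5, and in Erbb2-deficient adjacent 1, at 22.1 against 8.73 to 12.5. Hoxa11 was high in Erbb2-deficient tumor 5, at 1576 against 537 to 766. Hoxb6 was flagged in control tumor 1 and in Erbb2-deficient tumor 3, each at 0.698 with the others at 0, and each of these is 1 count.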

How the results depend on the processing

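The counts of Hox rows called lower were 6 in controls and 5 in Erbb2-deficient mice. Leaving out 1 library at a time gave 5 to 7 and 5 to 8, the latter at 8 without control tumor 2. Without control tumors 2 and 3 the counts were 7 and 10, and a fit of the 2 groups alone gave 2 of 9 tested rows in controls (Hoxb3 and Hoxb7) and 7 of 10 in Erbb2-deficient mice. RLE factors gave 6 and 5, DESeq2 6 and 6, no filter 5 and 5, and a minimum count of 5 gave 6 and 5. Counts called higher, and those of the genotype comparisons and the interaction, were 0 in each of these alternatives, single libraries left out included (0 to 0). No value changed sign while called. Hoxb3 was called lower in both genotypes in every alternative that tested it. A replicate block gave 6 in controls, without Hoxa11 and with Hoxb13 (adjusted p = 0.0418), and 7 in Erbb2-deficient mice, with Hoxa7 (0.0469) and Hoxb13 (0.0325) added. The numbers were not taken to pair the libraries: deviations of same-numbered libraries correlated above 0.1 in 6 of 10 pairs, and 4 of 10 tumors correlated best with the adjacent library of their own number. Depth limits 27 of the 39 Hox rows, which failed the filter; Hoxa6 and Hoxc4 among them were called lower in some alternatives with fewer counts required or libraries left out. The cause of the changed counts was not tested.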
